A study of Mus musculus with 8 samples.

Results

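The nuclear-encoded subunits of the mitochondrial respiratory chain were followed through 8 RNA libraries of sorted mouse intestinal epithelium. Members were taken by symbol: genes named Ndufa, Ndufb, Ndufc, Ndufs or Ndufv with a number, Sdha to Sdhd, Uqcr genes, Cox4 to Cox8 genes and Atp5 genes, each with at least 10 reads summed over the libraries. This gave 83 of the 23366 gene symbols in the tables, of which 37 were assigned by name to complex I, 4 to complex II, 8 to complex III, 17 to complex IV and 17 to complex V. Cox8b matched by name but had 6 reads in all and was left out of the tests. A name does not always give the role: Ndufa4 is now placed in complex IV, Cox7a2l is a factor of respiratory supercomplexes, and Atp5s and Atp5sl are not stable subunits of ATP synthase. Mitochondrially encoded subunits were not analysed here.

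The respiratory chain passes electrons from NADH (complex I) and succinate (complex II) through complex III to oxygen at complex IV, and ATP synthase (complex V) uses the resulting proton gradient to make ATP. Most subunits are encoded in the nucleus, and several subunits of complex IV exist as a widely expressed form and a form of heart, skeletal muscle, lung or testis. In the intestine, crypts hold stem and dividing cells, and villi hold absorptive enterocytes that carry out digestion and lipid export.

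Male littermates of 6 weeks carried Sox4 alleles flanked by loxP sites, either without Cre (Sox4fl/fl, control) or with 1 copy of a villin-promoter Cre (Sox4fl/fl:vilCre+/-, Sox4cKO), which acts in intestinal epithelial cells. CD326+ cells were sorted into a CD44- gate enriched for villus cells (CD44minus) and a CD44+ gate rich in crypt cells (CD44plus), and 50000 cells went into a library. There were 4 groups of 2 libraries, each pair from separate animals, and both gates of an animal carried the same replicate number. Values are given as replicate 1 and replicate 2 of the control, then replicate 1 and replicate 2 of Sox4cKO.

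In CD44plus cells Sox4, the deleted transcription factor gene, measured 128 and 120 CPM without Cre and 17.8 and 25.7 CPM with it, and 0.272 to 8.25 CPM in the CD44minus libraries. CPM is a gene's reads scaled to the same total in every library, after TMM correction of library totals unless plain gene-count totals are named. Gene counts ran from 886194 to 6963345 in CD44minus and from 6007554 to 13238050 in CD44plus. Cd44 measured 5.72 to 27.2 CPM in CD44minus and 203 to 327 CPM in CD44plus, Olfm4, a stem cell marker, 14.8 to 61.8 and 3552 to 4882 CPM, and Alpi, an enterocyte phosphatase, 279 to 1565 and 35.5 to 57.1 CPM. Lyz1, a Paneth cell gene, went against the crypt label, with 2641 to 15105 CPM in CD44minus and 1194 to 2144 CPM in CD44plus. Markers of mast cells summed to 7.90 to 38.1 CPM in CD44minus and 1647 to 16790 CPM in CD44plus. Markers of T cells summed to 164 to 776 and 1877 to 4712 CPM. The gates thus also differed in RNA of immune cells, whose part in the gate differences below was not tested. Sox4cKO CD44minus replicate 2 stood apart, with a TMM factor of 0.527 against 0.797 to 1.72 in the other libraries. Receptors of smell and the vomeronasal organ were taken as a measure of background, on the assumption that gut epithelium uses few of them. They gave a predicted background of 6.66% to 20.1% of gene counts in the other 3 CD44minus libraries and of 0.332% to 1.75% in the remaining 5 libraries. For member reads the same prediction was 0.0441% to 4.24% over all 8 libraries. In bulk RNA, fewer cells of a type and less RNA per cell cannot be told apart.

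Summed over the 83 members, the chain measured 12005, 12684, 12650 and 12372 CPM in CD44plus. In CD44minus it measured 4598, 8713, 3611 and 21632 CPM. The 4 CD44plus libraries lay within a narrow band, whereas the CD44minus libraries spread on both sides of it. On plain gene-count totals the sums were 10968, 11560, 11390 and 9863 CPM in CD44plus and 7703, 9524, 6205 and 11402 CPM in CD44minus. On that scale the highest CD44minus library lay inside the CD44plus range, so the size of the gate difference rested on the scaling and on this library, which was the highest of all 8 for 69 of 83 members in TMM CPM and for 21 of 83 on gene-count totals.

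**Figure D1:**
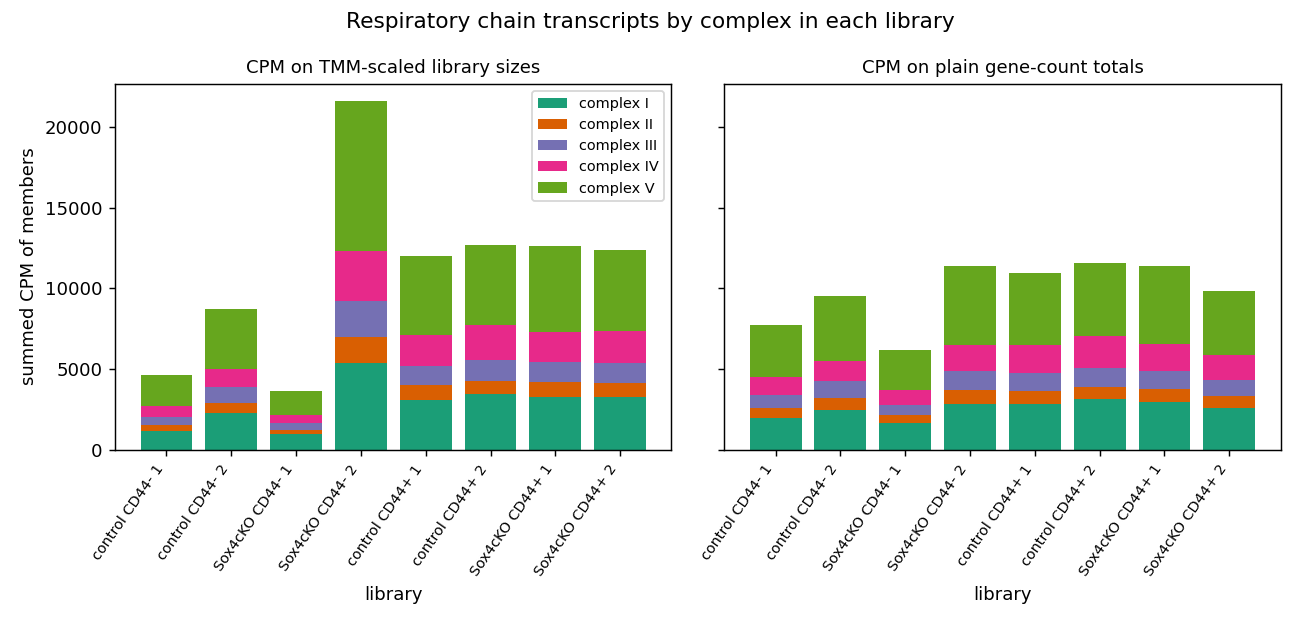
Bars give the summed CPM of the 83 members in each of the 8 libraries, stacked by complex, with TMM-scaled library sizes on the left and plain gene-count totals on the right. The 4 CD44plus bars are nearly level at 12005 to 12684 TMM CPM, whereas the CD44minus bars run from 3611 to 21632.

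Complex V gave the largest part of the chain's reads, with 38.9% to 43.0% of member reads per library. Complex I gave 24.8% to 27.1%, complex III 9.86% to 11.0% and complex II 6.34% to 8.42%. Per kilobase of exon, the mean level was highest for Atp5b, the catalytic beta subunit of ATP synthase, at 825 CPM per kb. Cox6a1, the widely expressed form of complex IV subunit 6a, followed at 494 CPM per kb, then Atp5a1, the alpha subunit of ATP synthase, at 442, Cox4i1 at 398 and Cox8a at 388 CPM per kb. Of complex III, Uqcrh, the hinge protein, reached 256 and Uqcrc1, a core protein, 247 CPM per kb.

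The shares of complexes IV and III in member reads did not overlap between the gates in either genotype, and went opposite ways. The share of complex IV was 14.3%, 13.2%, 14.4% and 14.5% in CD44minus and 16.1%, 17.2%, 14.8% and 16.1% in CD44plus. The exact 95% binomial intervals, which cover counting error only, were 14.3% to 14.8% in Sox4cKO CD44minus replicate 2 and 14.6% to 15.0% in Sox4cKO CD44plus replicate 1, so these neighbours overlapped within counting error. The share of complex III was 10.7%, 11.0%, 10.7% and 10.3% in CD44minus and smaller, at 10.1%, 10.5%, 9.86% and 9.96%, in CD44plus. Its intervals also overlapped between the gates in both genotypes. That of control CD44minus replicate 1 held both control CD44plus shares. In Sox4cKO replicate 2 they were 10.09% to 10.52% in CD44minus and 9.80% to 10.13% in CD44plus. In each genotype, the intervals of CD44minus replicate 2 and CD44plus replicate 1 did not overlap.

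The first comparison asked how members differed between crypt-enriched and villus-enriched cells of control animals. Of 82 members tested, 76 had a higher fitted level in CD44plus and 6 a lower one, with a median log2 fold change of 0.95 against -0.19 over all 20427 genes tested. By complex, the medians were 0.99 (I), 0.49 (II), 0.88 (III), 1.14 (IV) and 0.89 (V). None passed edgeR's quasi-likelihood test at a Benjamini-Hochberg adjusted p of 0.05, at which 2.46% of all genes were called (2.01% higher and 0.445% lower), 0 members were called by DESeq2, and 7 members higher (8.54%) and 1 lower (1.22%) had an unadjusted p under 0.05, as did 14.2% (higher) and 8.79% (lower) of all genes. The libraries of the gates did not overlap for 66 members higher in CD44plus and 5 lower, where 38.7% and 41% of all genes had no overlap in these directions. With the animal as a block, 3 members were called higher (Ndufa7, Ndufb2 and Ndufc2), where 17.9% of all genes were called. When 1 of the Sox4cKO CD44minus libraries, which enter the shared estimate of the spread, was left out, 35 members were called in control (34 higher and Cox7a1 lower), where 36.4% of all genes were called without replicate 1 and 34.6% without replicate 2. Fitted on the 4 control libraries alone, 31 of 77 members were called higher and 2 lower, where 54.9% of all genes were called.

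In Sox4cKO animals the same gate comparison gave a median log2 fold change of 0.03 over the members, against -0.48 over all genes, with 43 members positive and 39 negative. No member was called by edgeR, where 2.59% of all genes were (1.66% higher and 0.93% lower), and 0 members higher and 2 lower (Cox7a1 and Cox4i2) had an unadjusted p under 0.05, as did 8.35% and 9.33% of all genes. DESeq2 called Cox7a1 lower. The gates did not overlap for 4 members higher and 5 lower in CD44plus, where 21.1% and 16.2% of all genes had no overlap. Without Sox4cKO CD44minus replicate 2 the median was 1.84 and 63 members were called higher, where 24.9% of all genes were. Without replicate 1 the median was -0.70 and 3 members were called lower, where 8.25% of all genes were. The sign of the gate difference in Sox4cKO therefore followed which of these 2 libraries was used.

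A measure free of this scaling is each member's share of all member reads, compared between the gates of an animal. For the 72 members with at least 10 reads in every library, the share was larger in CD44plus in all 4 animals for 21, smaller in all 4 for 15 and mixed for 36. For 62 of them the mean log2 ratio over the 4 animals was within 0.5 of 0. The means ran from -2.47 for Cox7a1 to 1.14 for Ndufa7. Counts over all genes on this measure are not given here. Whether the numbers shifted in all 4 animals are unusual, for members or for the lists below, was therefore not tested. When all genes were fitted with libraries scaled to the members' total, edgeR called 0 members in either genotype, where 5.03% (control) and 4.99% (Sox4cKO) of all genes were called. A paired exact test over 4 animals cannot give a two-sided p below 0.125.

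**Figure D2:**
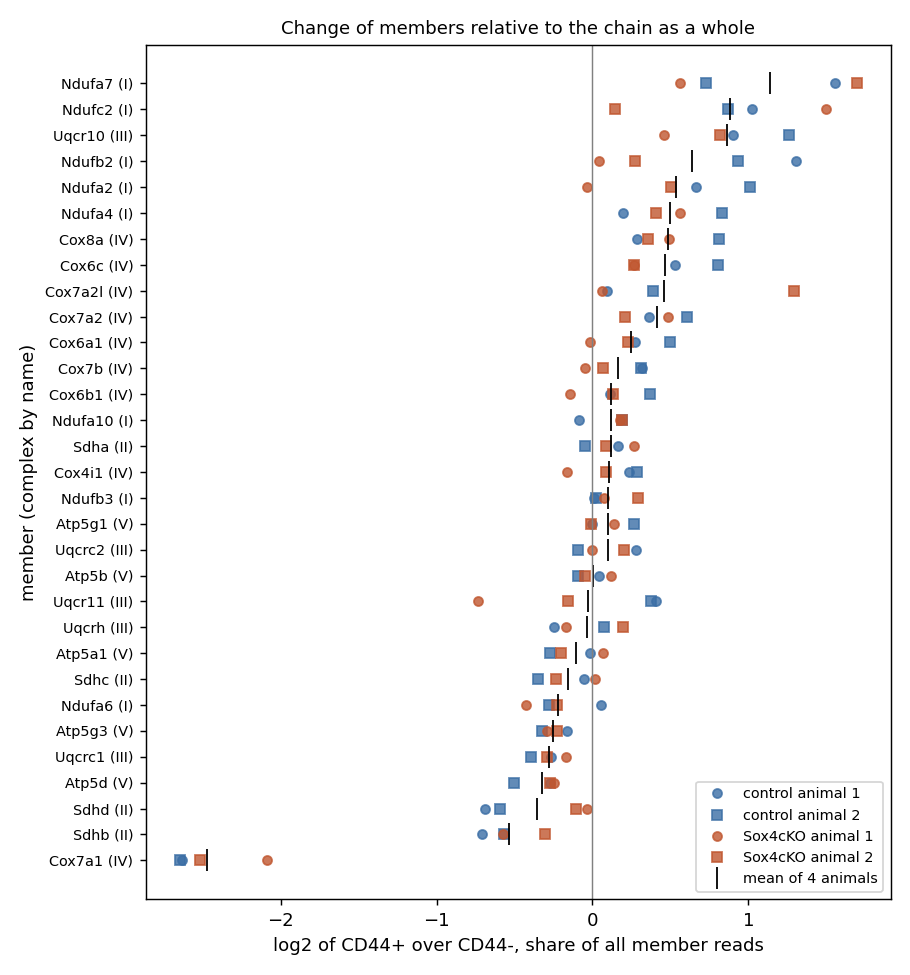
Each row is a member described in the text with at least 10 reads in every library, and each symbol gives, for 1 of 4 animals, the log2 ratio of its share of member reads in CD44+ over CD44- cells. Black ticks are means. Most members lie near 0, Cox7a1 lies apart at -2.47, and Ndufa7 is highest at 1.14.

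In complex I, the NADH dehydrogenase, the abundant accessory subunits Ndufa10 and Ndufa6 nearly kept their shares of member reads, with mean log2 ratios between the gates of 0.12 ± 0.14 and -0.22 ± 0.20 (SD, n = 4 animals). Ndufa7, an accessory subunit, measured 8.08, 21.6, 7.43 and 31.1 CPM in CD44minus and 62.2, 52.2, 38.5 and 57.5 CPM in CD44plus. All 4 CD44plus libraries lay above all CD44minus libraries. In control the log2 fold change was 1.92 ± 0.68 (SE), with an edgeR adjusted p of 0.128, and 2.04 ± 0.68 with an adjusted p of 0.0260 with the animal as a block (2.66e-05 to 0.638 over 18 alternatives). In Sox4cKO it was 1.29 ± 0.66, with an adjusted p of 0.312.

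Ndufc2, a small membrane-arm subunit, measured 10.8, 22.8, 5.94 and 82.3 CPM in CD44minus and 57.3, 60.6, 58.7 and 52.1 CPM in CD44plus. The control gates did not overlap, whereas the highest Sox4cKO CD44minus library lay above all CD44plus libraries. Its share of member reads was nevertheless larger in CD44plus in 4 of 4 animals, by a mean log2 ratio of 0.88 ± 0.56. Ndufb2, a further membrane-arm subunit, measured 6.74 and 20.8 CPM in CD44minus of control animals, below the 43.4 and 57.9 CPM of their CD44plus cells. The predicted background grows with exon length, and its part in these levels was not tested. With 4375 bases of exon, Ndufb2 averaged 7.67 CPM per kb, so background was predicted to be a larger part of its reads than of all member reads. Its fold change in control was 1.84 ± 0.71, with an edgeR adjusted p of 0.154, and 2.02 ± 0.68 with an adjusted p of 0.0263 with the block (9.51e-05 to 0.666 over 18 alternatives). For Ndufc2 the values were 1.79 ± 0.81 with 0.202 and, with the block, 1.88 ± 0.69 with 0.0411 (8.51e-05 to 0.678). Ndufa2, also accessory, measured 16.2 and 27.9 CPM in CD44minus of control animals, below the 67.0 and 82.0 CPM of their CD44plus cells, and Ndufb3 kept a share ratio of 0.10 ± 0.13. Chosen after its values were seen, Ndufv3, a small subunit of the NADH-binding module, had a smaller share in CD44plus in 4 of 4 animals (mean log2 ratio -0.79 ± 0.33). Ndufs5 did not pass the filter on low counts, with 0 to 19 reads per library, and 21.7% of its 50-base words also occur in other genes.

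Complex II, succinate dehydrogenase, also works in the citric acid cycle. Sdha, the flavoprotein that oxidises succinate, held its share of the chain, with a mean log2 ratio of 0.12 ± 0.13. Sdhb, the iron-sulfur subunit, measured 100, 166, 76.8 and 391 CPM in CD44minus and 160, 164, 180 and 181 CPM in CD44plus. These levels overlapped between the gates, but the share of Sdhb in member reads did not, at 1.81% to 2.18% in CD44minus and 1.29% to 1.46% in CD44plus. Its mean log2 ratio was -0.54 ± 0.17, negative in 4 of 4 animals. The membrane anchors stood at -0.16 ± 0.16 (Sdhc) and -0.36 ± 0.33 (Sdhd).

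In complex III, the core proteins Uqcrc1 and Uqcrc2 had mean log2 share ratios of -0.28 ± 0.09 and 0.10 ± 0.17, and Uqcrh of -0.04 ± 0.21. Uqcr10, a small subunit, measured 23.6, 46.0, 26.2 and 126 CPM in CD44minus and 115, 160, 127 and 128 CPM in CD44plus. In control all CD44plus values lay above the CD44minus values, with a log2 fold change of 1.98 ± 0.77 and an edgeR adjusted p of 0.157. The Uqcr10 share of member reads was 0.51% to 0.73% in CD44minus and 0.96% to 1.26% in CD44plus, so the gates did not overlap on this measure (mean log2 ratio 0.86 ± 0.33). Uqcr11, the smallest subunit, differed between genotypes in sign, with 0.41 and 0.38 in the control animals and -0.73 and -0.16 in the Sox4cKO animals. This difference was not tested on shares, and in the fit the genotype effect on Uqcr11 did not differ between the gates past the threshold.

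In complex V, Atp5b had a mean log2 share ratio of 0.01 ± 0.09 and Atp5a1 of -0.11 ± 0.16. Together with Atp5d, the delta subunit (-0.32 ± 0.12), these are the most abundant members of ATP synthase. The c ring that turns with proton flow is made from a peptide encoded by Atp5g1, Atp5g2 and Atp5g3. Atp5g3 was the main source of it by reads, with 68.8 to 343 CPM in CD44minus and 168 to 197 CPM in CD44plus. Atp5g1 gave 14.2% to 15.5% of Atp5g1 plus Atp5g3 reads in CD44minus and 15.6% to 20.1% in CD44plus. Atp5g2 had 2 to 18 reads per library, and 38.3% of its 50-base words occur in other genes, so its count is uncertain.

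Among the 72 members with at least 10 reads in every library, the one whose share differed most between the gates, Cox7a1, belongs to complex IV. Cox7a1 and Cox7a2 encode alternative forms of subunit 7a, of which Cox7a1 is the form of heart and skeletal muscle and Cox7a2 the widely expressed form. Cox7a1 lies at chr7:30184144-30186078 on the plus strand of GRCm38 and Cox7a2 at chr9:79755361-79759878 on the minus strand, and neither overlaps another gene or shares a 50-base word with any. Because the isoforms differed in their levels between gates, the upstream sequences of both are shown for comparison, 5′ to 3′ on the gene's strand, from 250 to 31 bases before the RefSeq start (GRCm38.p6, chr7:30183921-30184140, plus strand, and chr9:79759884-79760103, minus strand). Capitals mark a GC box (GGGCGG, searched on both strands), which was found 44 bases before the start of Cox7a2 and not in the window of Cox7a1.
Cox7a1: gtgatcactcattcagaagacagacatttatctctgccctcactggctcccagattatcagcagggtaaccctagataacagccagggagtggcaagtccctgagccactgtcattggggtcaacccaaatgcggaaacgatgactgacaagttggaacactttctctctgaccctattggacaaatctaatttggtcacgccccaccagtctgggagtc
Cox7a2: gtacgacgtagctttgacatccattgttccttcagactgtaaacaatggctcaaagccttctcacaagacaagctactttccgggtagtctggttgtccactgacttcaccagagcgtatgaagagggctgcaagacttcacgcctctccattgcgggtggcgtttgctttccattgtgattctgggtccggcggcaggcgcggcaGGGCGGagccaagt
The whole windows, from 250 bases before to 50 bases after the start, were also searched for the words GCGCATGC (NRF1), CCGGAAG (ETS factors such as GABP), AAGATGGC (YY1), TATAAA (bound by TBP) and TCAAGGTCA (estrogen-related receptors), on both strands, and held none of them.

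Cox7a1 measured 27.6, 34.6, 10.9 and 98.9 CPM in CD44minus, from 41, 88, 22 and 363 reads. In CD44plus it measured 11.6, 8.04, 8.97 and 9.85 CPM, from 130, 44, 62 and 104 reads. In each animal the CD44minus library was higher, although the lowest CD44minus value, that of Sox4cKO replicate 1, lay within the CD44plus range. Cox7a2 ran the other way in control, with 37.7 and 67.6 CPM in CD44minus and 127 and 150 CPM in CD44plus, and gave 25.8 and 228 CPM in Sox4cKO CD44minus against 126 and 151 CPM in Sox4cKO CD44plus.

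Of the reads of both genes, Cox7a1 held 42.3%, 33.8%, 29.7% and 30.3% in CD44minus and 8.40%, 5.09%, 6.63% and 6.12% in CD44plus. The shares did not overlap, and the widest exact 95% binomial interval in CD44minus, 19.7% to 41.5% in Sox4cKO replicate 1, lay above the highest CD44plus bound of 9.90%. Between genotypes, the shares overlapped in CD44plus, and in CD44minus both control shares lay above both Sox4cKO shares, with intervals that overlapped. As a share of all member reads, Cox7a1 had log2 ratios of -2.63, -2.65, -2.09 and -2.52 between the gates of the 4 animals, which is 5.55-fold lower in CD44plus on average (mean log2 -2.47 ± 0.26, SD, lower in 4 of 4 animals).

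In the fit over all genes, with edgeR, the log2 fold change of Cox7a1 was -1.66 ± 0.73 (adjusted p = 0.193) in control and -2.55 ± 0.74 (adjusted p = 0.0774) in Sox4cKO, so neither passed the test. It passed on plain gene-count totals in both genotypes (-2.22, adjusted p = 0.0437, and -2.17, adjusted p = 0.0471), and without Sox4cKO CD44minus replicate 1 in both (adjusted p = 8.24e-04 and 1.77e-06). Without Sox4cKO CD44minus replicate 2, the fold change in Sox4cKO was -0.20 (adjusted p = 0.761), and that in control was -1.65 (adjusted p = 0.00786). Over 18 alternatives in each genotype, the adjusted p ran from 2.56e-05 to 0.633 in control and from 1.77e-06 to 0.761 in Sox4cKO, with every fold change negative. The predicted background was 0.441 to 1.65 reads of Cox7a1 per CD44minus library, under the 22 to 363 observed. Acta2, a smooth muscle marker, measured 1.91 to 12.1 CPM in CD44minus and 0.536 to 3.10 CPM in CD44plus, and was 1.91 CPM in the library with the most Cox7a1. The 7 stroma and endothelium markers summed to 28.9 to 123 CPM in CD44minus and 183 to 467 CPM in CD44plus, where Vim (115 to 294 CPM) and Pecam1 made up most of the sum. The other 5 (Col1a1, Col1a2, Col3a1, Cdh5 and Acta2) were higher in 3 of 4 CD44minus libraries than in all CD44plus libraries. In the fourth, which had the most Cox7a1, each of these 5 was at its lowest in CD44minus, such as Col1a1 at 1.63 CPM against 12.2 to 24.3 CPM. Their part in the Cox7a1 values was not tested.

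**Figure D3:**
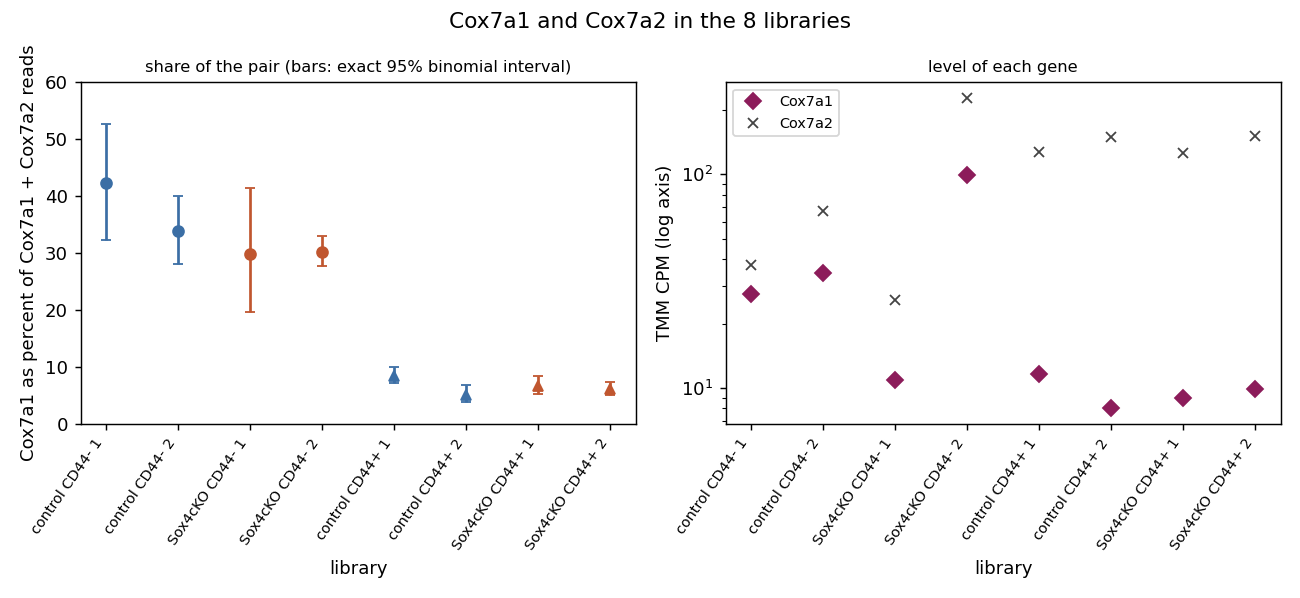
The left panel gives Cox7a1 as a percent of Cox7a1 plus Cox7a2 reads in each library, with exact 95% binomial intervals, and the right panel gives the TMM CPM of both genes on a log axis. The 4 CD44- shares of 29.7% to 42.3% lie above the 4 CD44+ shares of 5.09% to 8.40%, in both genotypes.

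Most other widely expressed complex IV subunits had slightly larger shares of the chain in CD44plus. Cox6c had a mean log2 ratio of 0.47 ± 0.26 and Cox8a of 0.49 ± 0.23, both positive in 4 of 4 animals. Ndufa4 stood at 0.50 ± 0.27 (4 of 4), Cox7a2 at 0.42 ± 0.17 (4 of 4), Cox7a2l at 0.46 ± 0.58 (4 of 4), Cox6a1 at 0.25 ± 0.21 (3 of 4), Cox7b at 0.16 ± 0.18 (3 of 4), Cox6b1 at 0.12 ± 0.21 (3 of 4) and Cox4i1 at 0.11 ± 0.20 (3 of 4). Named after their values were seen, Cox5a and Cox5b stood at -0.02 ± 0.36 and -0.11 ± 0.34, each lower in 3 of 4 animals. Of the complex IV members with at least 10 reads in every library, Cox7a1 was the only one whose share was smaller in CD44plus in all 4 animals.

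Other tissue-restricted forms gave few reads. Cox4i2, the lung form of subunit 4, had 3, 9, 2 and 4 reads in CD44minus and 6, 1, 0 and 0 in CD44plus, where a count of 0 allows up to 3 reads. Its mean level per kb of exon was the lowest of the 83 members, at 1.33 CPM per kb, and the part of background in its reads was not tested. Cox6a2, the muscle form of subunit 6a, had 0 to 20 reads per library, Cox7b2 2 to 16, Cox8c 0 to 4 and Ndufa4l2, a relative of Ndufa4 known for induction in low oxygen, 1 to 11, with a predicted background of 0.263 to 2.88 reads over these 4 genes. Cox6b2, the testis form of subunit 6b, was the exception in CD44plus, with 65, 29, 41 and 91 reads against a predicted background of 0.426 to 1.68. It made up 2.83% to 4.97% of Cox6b1 plus Cox6b2 reads there, within the 0.82% to 10.3% of CD44minus, which rested on 4 to 10 reads per library.

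The promoters of the members were compared with those of all genes for the same words, over windows from 250 bases before to 50 bases after the RefSeq start. Of the 83 members, 68 had a window, as did 27025 genes in all. The word GCGCATGC was found for 14.7% of members and 3.05% of all genes, and CCGGAAG for 23.5% and 9.93%. AAGATGGC was found for 16.2% and 3.19%, TCAAGGTCA for 2.94% and 0.466%, GGGCGG for 41.2% and 38.2%, and TATAAA for 8.82% and 15.7%. The AAGATGGC word was in 7 of 32 complex I promoters, 4 of 16 complex V promoters and 0 of 12 complex IV promoters. A word match is a description of the sequence and no evidence of binding.

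The genotype comparison asked whether loss of Sox4 moved the chain within a gate. In CD44plus the sums by complex were nearly equal: complex I measured 3084 and 3433 CPM without Cre against 3248 and 3269 CPM in the knockout, and complex V 4871 and 4936 against 5344 and 5000 CPM. Over 82 members the median log2 fold change of Sox4cKO over control was -0.02, with 38 positive and 44 negative, against a median of 0.00 over all genes. No member had an edgeR adjusted p under 0.05, where 0% of all genes were called, none was called by DESeq2, and 0 had an unadjusted p under 0.05. Groups did not overlap for 12 members higher and 8 lower, where 14.2% and 16.4% of all genes had no overlap.

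Of the 71 members with at least 100 reads in each CD44plus library, 70 had a fitted log2 fold change within 0.3 of 0, and the exception, Ndufb2, stood at -0.43. The median ratio of the highest to the lowest of the 4 libraries was 1.24. The SE of these fold changes, which takes in the spread of the CD44minus libraries, was 0.58 to 1.22, which is larger than each of these differences. Fitted on the 4 CD44plus libraries alone, 0 of 79 members were called, where 0.0997% of all genes were. Cox7c, a small complex IV subunit, measured 14.7 and 26.5 CPM in these control cells against 9.26 and 8.53 CPM after Sox4 deletion, without overlap, and its log2 fold change of -1.21 ± 0.79 (SE) did not pass the test. Of its 50-base words, 22.1% occur in other genes. Cox4i2, with the smallest p among the members lower after deletion, rested on 6 and 1 reads against 0 and 0 (log2 -4.12). Atp5g2 was also lower on few reads, at 18 and 9 against 5 and 8 (log2 -1.11). Cox7a2l was highest among members in the other direction by p, at 43.1 and 40.4 against 45.3 and 56.1 CPM (0.28 ± 0.58). In Sox4cKO CD44plus replicate 2, markers of mast cells summed to 16790 CPM against 1647 to 3389 in the other CD44plus libraries and markers of T cells to 4712 against 1877 to 2829. Their part in these values was not tested, and the summed chain was 12650 CPM in replicate 1 and 12372 CPM in replicate 2 of that group.

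**Figure D4:**
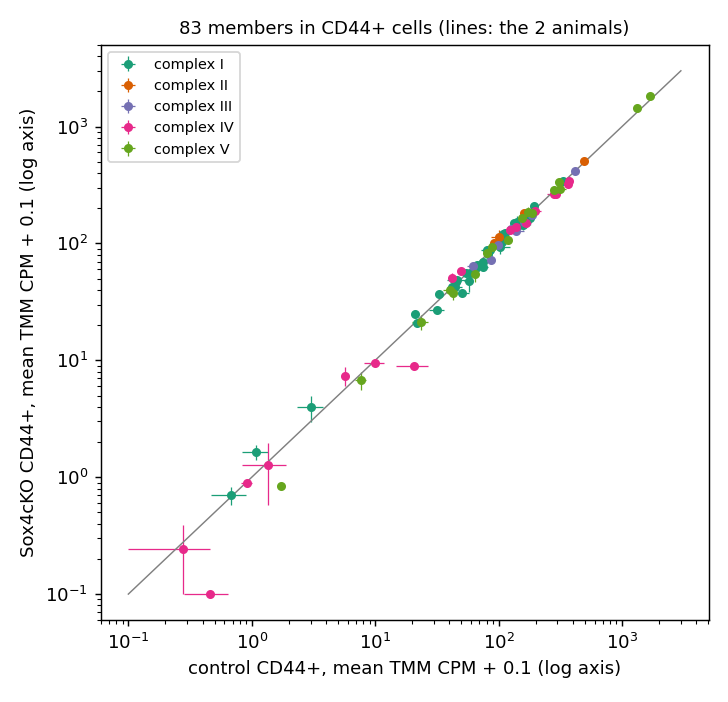
Each point is 1 of 83 members, with its mean TMM CPM plus 0.1 in control CD44+ cells on the horizontal log axis and in Sox4cKO CD44+ cells on the vertical log axis, coloured by complex, and lines span the 2 animals of a group. Points of members with at least 100 reads in each CD44plus library lie near the line of equal level. Cox7c lies below it at 8.53 to 9.26 against 14.7 to 26.5 CPM, as do, on few reads, Cox4i2 and Atp5g2.

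In CD44minus the median log2 fold change of Sox4cKO over control was 0.90, against 0.19 over all genes, with 77 members positive and 5 negative. The Sox4cKO libraries lay below and above both control libraries, as the sums of 3611 and 21632 against 4598 and 8713 CPM show, and only 1 member higher and 1 lower had groups without overlap, where 6.52% and 5.94% of all genes did. No member was called by edgeR or DESeq2, where edgeR called 0% of all genes, and 0 had an unadjusted p under 0.05. Without Sox4cKO CD44minus replicate 1, 69 members were called higher, where 27.5% of all genes were, and without replicate 2 the median was -0.85. The genotype effect in CD44plus minus that in CD44minus had a median of -0.87 over the members and -0.37 over all genes. No member was called for this difference by edgeR or DESeq2, where edgeR called 0% of all genes, and 0 had an unadjusted p under 0.05.

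The chain was set against other lists of mitochondrial and glycolytic genes through the ratio of their reads to member reads, which does not depend on library scaling. The 14 citric acid cycle genes gave reads equal to 40.5%, 35.9%, 39.2% and 34.4% of member reads in CD44minus and to 25.5%, 23.0%, 26.3% and 24.4% in CD44plus. The gates did not overlap, and the mean log2 ratio was -0.59 ± 0.08 (SD, n = 4 animals). Members of the cycle split: relative to the chain, 8 of 14 were higher in CD44plus in all 4 animals and 6 lower. Ogdh, a subunit of the oxoglutarate dehydrogenase complex, stood at -1.31 ± 0.17, Mdh2, mitochondrial malate dehydrogenase, at -1.07 ± 0.19 and Cs, citrate synthase, at -0.78 ± 0.13, whereas Suclg2, a subunit of the GTP-forming succinyl-CoA ligase, stood at 0.68 ± 0.36.

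Mitochondrial fatty acid oxidation showed the same order, with 20.5% to 23.3% of member reads in CD44minus and 15.9% to 17.8% in CD44plus, and 12 of 17 genes lower relative to the chain in all 4 animals. Cpt1a, which brings long-chain fatty acids into mitochondria, was the 1 gene higher in all 4 (0.77 ± 0.13), against Hadh at -1.19 ± 0.14 and Hadha at -0.41 ± 0.09, both enzymes of beta-oxidation. Glycolysis gave 35.4% to 40.4% in CD44minus and 15.5% to 19.6% in CD44plus, a mean log2 ratio of -1.06 for the summed reads. By gene, 7 of 15 with reads in every library were lower relative to the chain in all 4 animals and 0 higher. The median over these genes was -0.53. In the control fit, not relative to the chain, 11 of 16 were higher in CD44plus and 5 lower (median log2 0.30). Relative to the chain, Pkm, a pyruvate kinase, stood at -1.02 ± 0.33 and Ldha, a lactate dehydrogenase, at -0.66 ± 0.08, while Hk2, a hexokinase, stood at 0.71 ± 0.71.

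The 76 mitochondrial ribosomal protein genes ran the other way. Their reads equalled 20.4%, 16.2%, 23.5% and 13.3% of member reads in CD44minus and 25.9%, 26.6%, 25.9% and 26.4% in CD44plus. The predicted background was 22.3%, 8.52%, 27.2% and 1.18% of this list's reads in CD44minus and at most 1.17% in CD44plus. Its part in these ratios was not tested. In the fit, 74 of 76 were positive in control (median log2 1.47) and 73 in Sox4cKO (0.78), with 0 called in either. An unadjusted p under 0.05 was found for 42 of them higher in control (55.3%, against 14.2% of all genes) and for 8 in Sox4cKO (10.5%, against 8.35%). Mrpl52 measured 12.1, 34.2, 17.3 and 70.0 CPM in CD44minus and 100, 140, 99.9 and 123 CPM in CD44plus, without overlap. The 40 assembly factors of the chain gave 6.01% to 13.6% of member reads in CD44minus and 8.68% to 9.27% in CD44plus. Their ranges overlapped. Relative to the chain, Cox17, the copper chaperone of complex IV, stood at -0.09 ± 0.34. Sco1, a further copper protein of complex IV, stood at -0.82 ± 0.45. The predicted background was 23.4%, 9.83%, 27.1% and 1.51% of the assembly factor reads in CD44minus and at most 1.88% in CD44plus. Its part in this overlap and in the Sco1 ratio was not tested.

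**Figure D5:**
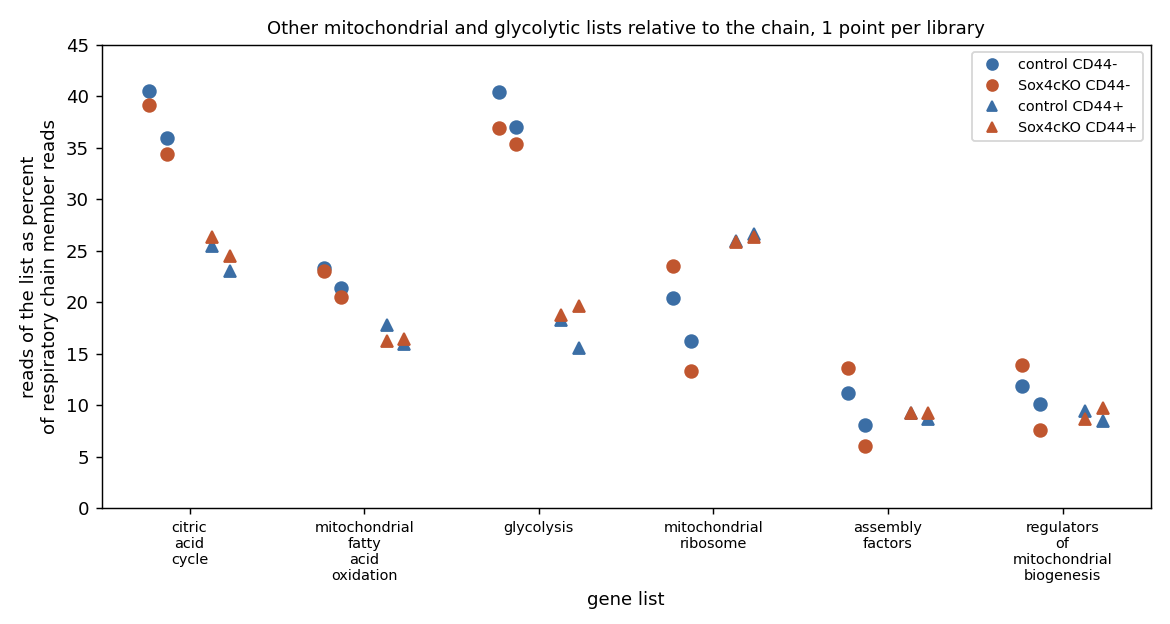
Points give, for each of the 8 libraries, the reads of a gene list as a percent of the reads of the 83 respiratory chain members, with circles for CD44- and triangles for CD44+ cells. Summed reads of the citric acid cycle, fatty acid oxidation and glycolysis lists lie lower in CD44+ cells. Those of mitochondrial ribosomal genes lie higher at 25.9% to 26.6%, and the other 2 lists overlap between gates.

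Of the 16 regulators of mitochondrial biogenesis, 14 had a positive gate difference in control (median log2 1.41) and 13 in Sox4cKO (0.86), with 0 called in either. In control, an unadjusted edgeR p under 0.05 was found for 7 higher (43.8%, against 14.2% of all genes) and 1 lower (6.25%, against 8.79%). In Sox4cKO it was found for 3 higher (18.8%, against 8.35%) and 1 lower (6.25%, against 9.33%). The predicted background was 18.3%, 6.55%, 22.2% and 0.991% of this list's reads in CD44minus and at most 1.69% in CD44plus. Its part in the values of the regulators was not tested. Ppargc1a, the coactivator PGC-1alpha, measured 120, 289, 109 and 460 CPM in CD44minus and 56.9, 52.6, 39.0 and 28.8 CPM in CD44plus, without overlap. With edgeR its log2 fold change was -1.90 (adjusted p = 0.186) in control and -3.07 (adjusted p = 0.0635) in Sox4cKO, and relative to the chain it stood at -2.99 ± 0.37, lower in 4 of 4 animals. Esrra, the estrogen-related receptor that works with PGC-1alpha, stood at -1.78 ± 0.48 relative to the chain and Ppargc1b, a relative of PGC-1alpha, at -0.70 ± 0.47, both lower in 4 of 4 animals.

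Pprc1, a PGC-1 relative linked to cell growth, ran the other way, with 29.6, 32.2, 32.7 and 39.0 CPM in CD44minus and 145, 118, 142 and 134 CPM in CD44plus. Tfam, which packages mitochondrial DNA and starts its transcription, measured 20.2, 26.3, 24.3 and 53.1 CPM in CD44minus and 122, 96.8, 103 and 92.4 CPM in CD44plus. Neither passed the test in control (edgeR adjusted p = 0.0869 for Pprc1 and 0.0754 for Tfam). Relative to the chain, the share was larger in CD44plus in 4 of 4 animals for 7 of 16 regulators: Pprc1, Tfam, Gabpa, Yy1, Tfb2m, Peo1 and Ssbp1. Nrf1, a nuclear factor of chain genes, Polg, the polymerase of mitochondrial DNA, and Tfb1m were higher in 3 of 4 animals, Gabpb1, Polrmt and Polg2 in 2 of 4.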

How the data were processed

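The authors deposited 1 table of raw read counts per gene symbol for each of 8 libraries of total RNA. Per the submitters' processing notes, HTSeq 0.6.1p1, STAR 2.2.5b, Trimmomatic 0.36 and bcl2fastq 2.17.4 were used. The strand setting and annotation of the counting are not given in the sources used here, so reads of overlapping genes cannot be told apart, and 13 members have over 20% of exon bases overlapped or of 50-base words shared with other genes.

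HTSeq's summary lines, which name no gene, were left out of totals, and 64.6% to 96.6% of uniquely placed reads per library were in no gene. Counts of all genes passing filterByExpr (minimum count 10) were fitted with edgeR 4.0.16 (TMM, quasi-likelihood test, 4 groups, Benjamini-Hochberg over 20427 genes, call at 0.05), in R 4.3.3. The biological coefficient of variation was 0.616. DESeq2 1.42.0 was an alternative. The fit was tested on simulated counts. Deviations of libraries from their group means correlated between the gates of an animal with 0.103 in control and 0.526 in Sox4cKO, and between same-numbered animals of the genotypes with 0.600 in CD44minus and 0.275 in CD44plus. The shared numbers come from animal numbers in the names of the deposited tables. In an alternative, the animal was therefore used as a block for the gate comparisons and for the difference between gates. For the genotype comparisons that alternative used the replicate number as the block, which pairs separate animals by number only. Control and Sox4cKO animals share no animal.

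Background was predicted from reads per kb of coding length (1548 kb in all) of 1433 olfactory and vomeronasal receptor genes, times each gene's exon length. Per kb of receptor exons with their untranslated parts (5087 kb in all) the prediction is lower. The background percentages given here are thus the higher of these predictions. Shares carry exact (Clopper-Pearson) 95% intervals, which cover counting error only, as do limits for 0 counts (3 reads). Exon lengths come from GENCODE vM21 and promoters from RefSeq, both on GRCm38, which is mm10. Members and gene lists were chosen with earlier results of these data known. Named were the 3 most abundant members of each complex, the 3 with the smallest p per direction and comparison, Sdha to Sdhd, all paralog sets, and of each other list the 3 most abundant genes and the 1 with the smallest p, with all regulators. Some genes under this rule are not reported here.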

Additional observations from a re-analysis of the deposited data

How the results depend on the processing

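The number of members called depended on the libraries and the scaling, whereas shares of member reads use no library scaling. The share of all genes called between gates also changed when a library was left out. Such changes in calls were thus not confined to members, and whether they were larger for the chain was not tested. For the fits without TMM, without the filter, after background subtraction and by DESeq2, the share of all genes called is not given here. Whether their calls are particular to the chain was not tested. In control, 3 members were called between gates on gene-count totals without TMM, 33 with the 4 control libraries alone, 1 after subtraction of the predicted background (Uqcr10) and 3 with the replicate block, against 0, and 0 to 35 when 1 library was left out. The median was 0.439 without TMM and 0.0508 when scaled to the members' own total, a choice made after seeing the data, and 0.574 to 1.41 when 1 library was left out, the highest without control CD44minus replicate 2. Over all genes that median was -0.187 with TMM, -0.522 with DESeq2 size factors and -0.772 without scaling, a shift to which these changes are relative. In Sox4cKO, 1 member (Cox7a1) was called without TMM, without the filter and by DESeq2, and 0 to 63 when 1 library was left out, with a median from -0.701 to 1.84. In the genotype comparisons, the CD44plus median was -0.122 without TMM and -0.11 to 0.0792 when 1 library was left out, with 0 called in each case. In CD44minus 0 to 69 members were called when 1 library was left out (median -0.849 to 1.64), and for the difference between gates 0 to 4 (median -1.59 to 0.83, the 4 called lower without Sox4cKO CD44minus replicate 1). Changes of sign were looked at only for members named by the rule above, not for all members. Without Sox4cKO CD44minus replicate 2, named members that turned from a negative to a positive gate difference in Sox4cKO included these: Ndufa6 1.45, Uqcrc1 1.61, Uqcrh 1.85, Atp5d 1.61, Cox6b1 1.81, Cox7b 1.85, Atp5g3 1.42 and Sdhc 1.72. Without replicate 1 of that group the same members, in this order, had their lowest values, of -1.09, -1.06, -0.792, -1.12, -0.805, -0.811, -0.911 and -0.918. The replicate block changed no other call of a member. Leaving a library out leaves 1 sample in its group, which is then assumed to vary like the others. With the 4 libraries of a comparison alone, the difference between gates could not be fitted. Results with few reads, such as the restricted isoforms, are limited by depth in the CD44minus libraries. The cause of these changes was not tested.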
